A study of Mus musculus with 2 samples.

Results

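The 10 genes described here are transcription factors that act in the making of fat cells: Pparg, Cebpa, Cebpb, Cebpd, Klf15, Ebf1, Ebf2, Zfp423, Zfp467 and Peg3. They were chosen by gene symbol, and each symbol was found once among the 32286 features of the count matrices. Expression was read by droplet sequencing of RNA from single cells of the stromal vascular fraction, the non-adipocyte cells of mouse white adipose tissue, in 1 library labelled WT and 1 library labelled Paqr4 transgenic. Per the series text, the tissue was subcutaneous fat, CD45-negative cells were taken by flow cytometry, and cells of 3 mice were pooled; whether that is 3 per genotype was not given in the sources used here, nor was the age, strain or sex of the mice or the promoter that drives the transgene. Paqr4 encodes a membrane protein of the progestin and adipoQ receptor family, and the stated question was how it affects the pool of adipose progenitors. Since each genotype has 1 library and so no replicate, every difference below compares 2 libraries and carries no test.

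Fat cells arise from fibroblast-like progenitors that stay in the stromal vascular fraction until they commit. In the textbook cascade, an adipogenic stimulus first raises C/EBPβ and C/EBPδ, which then switch on PPARγ and C/EBPα, and these last factors turn on the lipid and hormone genes of the mature fat cell. EBF proteins, the zinc finger proteins ZFP423 and ZFP467 and the glucocorticoid-responsive factor KLF15 act around that core, whereas PEG3 is a zinc finger protein made from the paternal copy of an imprinted gene.

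The DNA just before the start of 3 members is shown because Cebpb, Klf15 and Peg3 were lower in the transgenic library in each of 5 progenitor states, and because each of them holds the core of a cyclic AMP response element, TGACG on either strand, before its start. The first window covers chr2:167688665-167688914 on the plus strand, the second chr6:90462326-90462575 on the plus strand and the third, a stretch of 30 bases, chr7:6730579-6730608 on the minus strand (RefSeq sequences, build GRCm38.p6). Capitals mark matches to TGACG or its reverse complement and, in Klf15 alone, to the E-box CACGTG that clock factors bind; all motifs were chosen after the levels had been seen.
Cebpb: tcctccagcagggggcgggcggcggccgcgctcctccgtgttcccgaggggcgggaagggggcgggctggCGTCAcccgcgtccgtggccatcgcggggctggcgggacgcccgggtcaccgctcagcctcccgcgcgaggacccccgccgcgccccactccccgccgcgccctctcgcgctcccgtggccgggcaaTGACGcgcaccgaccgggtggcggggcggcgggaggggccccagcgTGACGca
Klf15: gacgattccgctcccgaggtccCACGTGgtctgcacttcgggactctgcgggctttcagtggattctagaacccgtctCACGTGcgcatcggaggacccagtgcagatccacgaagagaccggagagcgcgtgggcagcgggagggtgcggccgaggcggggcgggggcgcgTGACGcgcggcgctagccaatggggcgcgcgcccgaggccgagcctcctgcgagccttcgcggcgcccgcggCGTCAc
Peg3: actgactccgtTGACGTCAactccgtgcct
The Peg3 stretch begins 189 bases before the RefSeq start and holds TGACG and its reverse complement CGTCA overlapping in the palindrome TGACGTCA; it lies within the first exon of Usp29, the gene that leaves the same interval in the opposite direction. Matches to TGACG were found in 17.8% of 32851 windows of 250 bases before gene starts, and to CACGTG in 6.02%. Such a match is thus common and is a description of the letters only. G and C made up 81.6% of the Cebpb and 72% of the Klf15 window, against a median of 52.4% over all windows, so these shares are no matched background. Windows were available for 8 of the 10 members, not for Cebpd and Ebf2. Cebpd was also lower in transgenic in each of the 5 states but could not be searched. A match to the C/EBP site TTGCNNAA, found in 9.56% of the windows, was present in windows of Pparg and Zfp423, and the other searches, ACANNNTGT of the glucocorticoid receptor, TGANTCA of AP-1, GCCATNTT of YY1 and the EBF palindrome, all on both strands, gave no match in the windows of the 8 members.

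After filtering (at least 1000 UMIs, at least 500 genes and at most 10% mitochondrial UMIs, with called doublets removed), 1328 WT and 1521 transgenic cells remained, of which 1122 and 1353 were progenitors. A UMI (unique molecular identifier) stands for 1 captured RNA molecule. Progenitors had a median of 22619.5 UMIs in WT and 19366 in transgenic, and 0 cell barcodes were shared. The 9 progenitor markers, among them Pdgfra, Dcn and Col1a1, summed to 16866 UMIs per 1000000 UMIs of these cells (UPM) in WT and 16991 in transgenic progenitors, with 0 of the 9 at 0. Of 7 adipocyte markers, 3 were at 0 in WT and 1 in transgenic progenitors, and together they reached 2.38 and 3.01 UPM, while 6 red cell markers reached 685 and 506. The 6 mesothelial markers, Wt1 among them, reached 501 UPM in WT and 374 in transgenic progenitors. A mesothelial cluster of 24 cells and a cluster of 30 cells led by pancreatic acinar genes were also present. The fat depot is known from the series text only and was not tested. Xist, the RNA of the inactive X chromosome, was at 959 UPM in WT and 0.152 in transgenic progenitors, so sex and genotype cannot be told apart in any difference below. Paqr4 itself was at 7.89 UPM in WT (202 UMIs) and 9.48 in transgenic progenitors (249 UMIs); whether the transcript of the transgene was counted under that name was not given in the sources used here.

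Levels are given in UPM over the cells described, and their differences as the log2 of transgenic over WT. The intervals are exact 95% intervals that cover counting error only, not the spread between mice or between cells. Progenitors were split by clustering from which the 10 factors had been left out, and the 5 states that held 50 cells or more of both libraries were compared. Dpp4-like cells (237 WT and 183 transgenic cells) carried markers known from interstitial progenitors, Icam1-like cells (156 and 322) those of committed preadipocytes, and F3-like cells (186 and 262) those of the CD142-positive population. A state led by Il6, Procr and Adamts4 (382 and 351) and one led by the interferon-response genes Rsad2, Ifit3 and Isg15 (84 and 119) took no name from the marker lists; the cluster of the latter also held immune cells, which were set apart because their leading list was not the progenitor list. Icam1-like cells made up 13.9% of WT and 23.8% of transgenic progenitors, and Dpp4-like cells 21.1% and 13.5%. Because genes that vary with the factors shaped these clusters, the order of a factor's levels over the states is a description.

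In all progenitors, Peg3 was the member with the largest log2 difference between the libraries, at 138 UPM in WT against 57.2 in transgenic. Klf15 was at 6.72 and 2.89 UPM, Cebpb at 244 and 174 UPM, and Cebpd at 1586 and 1211 UPM, each lower in transgenic with intervals that did not overlap. Zfp423 was the only member with a difference of over 0.4 log2 units in the other direction, at 27.8 and 37.5 UPM. Pparg (22.1 and 22.0 UPM) and Cebpa (8.17 and 7.88 UPM), the pair at the centre of the cascade, lay within counting error of each other in the 2 libraries. Of the 8 members at 10 UPM or more in a library, 0 were 1.5-fold or more higher in transgenic, beside 2.72% of the 8746 genes at that level, and 1 (Peg3) was 1.5-fold or more lower, beside 1.73%. Cebpa and Klf15 lay under that level and were not counted. The median log2 ratio over all 10 members was -0.16, beside 0.09 over all genes at 10 UPM or more.

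**Figure D1:**
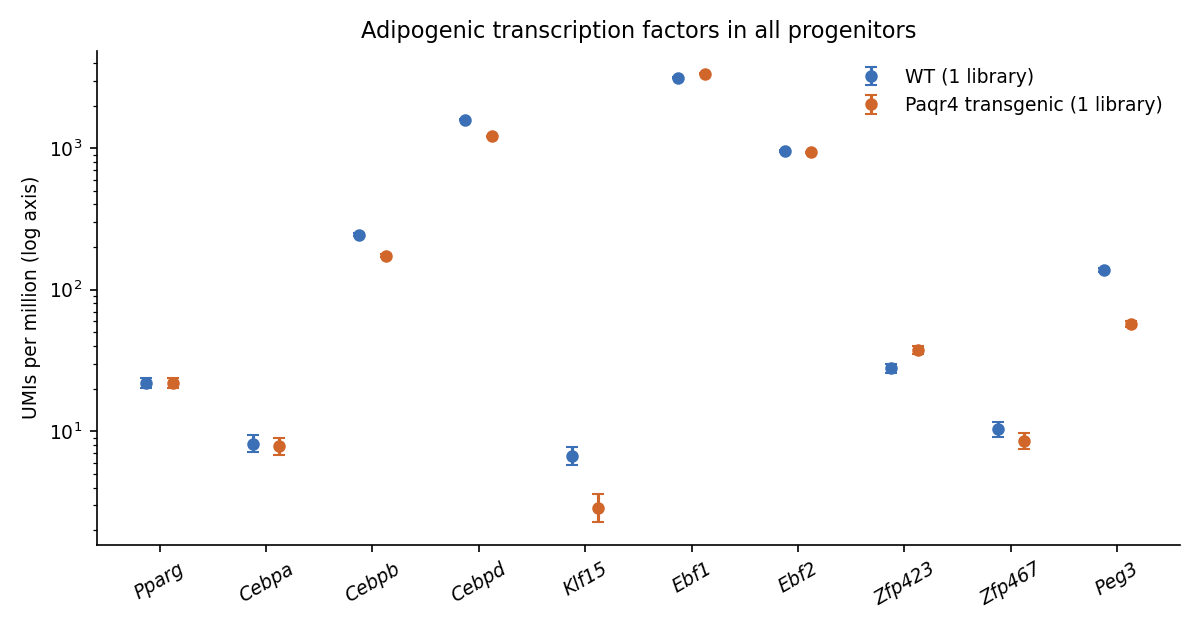
Level of the 10 factors in all progenitors, in UPM on a log axis, for the WT library (blue) and the Paqr4 transgenic library (orange); bars are exact 95% Poisson intervals for counting error, some smaller than the point. Peg3 (138 and 57.2) and Klf15 (6.72 and 2.89) stand furthest apart, and the points of Pparg and Cebpa overlap.

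Cebpb encodes C/EBPβ, a basic leucine zipper factor that starts the cascade and also answers inflammatory signals. It is annotated at chr2:167688915-167690418 on the plus strand (GRCm38), with exon sequence over its whole span, and overlaps Tmem189 on the opposite strand. In all progenitors Cebpb was at 244 UPM in WT (interval 238 to 250.5) and 174 UPM in transgenic (169 to 179.5), a log2 ratio of -0.49 (-0.54 to -0.43). The share of progenitors with a Cebpb UMI was 82.6% in WT and 72.7% in transgenic, and with each cell thinned to 5000 UMIs it was 51.3% and 42.5%, so the gap was also there at equal depth. Both libraries had the highest level in the Il6-led state, at 341 UPM in WT against 297 in transgenic, a log2 ratio of -0.20 (-0.28 to -0.12). The gap was wider elsewhere: 198 and 97.8 UPM in Dpp4-like cells (log2 ratio -1.02, -1.18 to -0.85), 197 and 105 UPM in Ifit3-led cells (-0.91, -1.16 to -0.66) and 229.8 and 147 UPM in F3-like cells (-0.64, -0.79 to -0.49). In Icam1-like cells Cebpb was at 161 and 143 UPM (-0.17, -0.33 to -0.01), the smallest of the 5 ratios. It was 0.03 when cells were clustered anew with the called doublets kept, which also changed the cells of the state. Of the 5 states, the lowest Cebpb level was thus in Icam1-like cells in WT and in Dpp4-like cells in transgenic, where it overlapped that of Ifit3-led cells.

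Cebpd encodes C/EBPδ, the partner that rises alongside C/EBPβ and is a known glucocorticoid-induced gene. It lies at chr16:15887286-15891031 on the plus strand, within a stretch where Spidr is annotated on the opposite strand. Cebpd was found in 97.6% of WT and 94.5% of transgenic progenitors, and its level was 1586 UPM (1571 to 1602) and 1211 UPM (1198 to 1225), a log2 ratio of -0.39 (-0.41 to -0.37). The order over the states was the same in both libraries, from Il6-led cells (2272 UPM in WT against 1777 in transgenic) over Icam1-like (1659 and 1345), F3-like (1645 and 1145) and Ifit3-led (1293 and 882) to Dpp4-like cells (797 and 517). Neighbours in that order were further apart than their intervals except Icam1-like and F3-like cells in WT. Cebpd was lower in transgenic in each of the 5 states, by 0.30 log2 units in Icam1-like cells and by 0.62 in Dpp4-like cells at the ends of the range. Cells with a Cebpb UMI had a Cebpd UMI more often than cells without: thinned to 10000 UMIs, 98.5% (97.3 to 99.2) against 93.7% (90.4 to 96.2) in WT, and 97.1% (95.5 to 98.2) against 89.5% (86.5 to 92.0) in transgenic. These shares pool states that differ in both genes, and within Icam1-like cells they were 97.6% and 96.7% in WT and 98.2% and 93.7% in transgenic, with intervals that overlapped.

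Free RNA differed in the same direction for these genes, but not for all members. In barcodes with at most 50 UMIs, which hold free RNA rather than cells, Cebpb was at 201 UPM in WT against 143 in transgenic, and Cebpd at 1039 and 922 UPM. For other members the gap in free RNA was unlike that in cells: Pparg was at 7.52 and 14.2 UPM in free RNA, Ebf1 at 674 and 1227 UPM, and Ebf2 at 239.9 and 384 UPM, each higher in transgenic. Haemoglobin made up 30.9% of these UMIs in WT and 27.8% in transgenic, and all free RNA levels given here include it. Without haemoglobin, free RNA held Cebpb at 291 and 198 UPM, Klf15 at 9.15 and 3.50 UPM and Peg3 at 126 and 56.7 UPM. Ebf1, at 975 and 1698 UPM, stayed higher in transgenic. What part such RNA has in the levels within cells was not tested. In a small cluster led by genes of pancreatic acinar cells (25 WT and 5 transgenic cells), Cebpb was found in 1 cell of each library, and Cebpd in 2 WT cells and 1 transgenic cell.

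Pparg encodes PPARγ, the nuclear receptor required for fat cell formation, annotated at chr6:115360951-115490399 on the plus strand. In all progenitors it counted 565 UMIs in WT and 578 in transgenic, which gave 22.1 UPM (20.3 to 24.0) and 22.0 UPM (20.3 to 23.9) and a log2 ratio of -0.00 (-0.17 to 0.17). The states behind this sum differed widely. Icam1-like cells had 62.4 UPM in WT against 49.2 in transgenic, and Dpp4-like cells had 8.32 and 5.2 UPM. Among the states compared, the highest was thus 7.49-fold above the lowest in WT and 9.47-fold in transgenic. These folds rest on few cells, since 5 cells held 51.9% of the 52 WT Pparg UMIs of Dpp4-like cells and 86.4% of the 22 transgenic ones. Between them, the intervals of Il6-led and F3-like cells overlapped in both libraries, as did those of Ifit3-led and Il6-led cells in WT and of F3-like and Ifit3-led cells in transgenic. The Icam1-like marker list holds Fabp4, Cd36 and Lpl, known targets of PPARγ, so the Pparg level there is not taken as support for the name.

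Within states, the Pparg ratio was below 0 in 4 of the 5, with intervals that included 0 in Dpp4-like and Il6-led cells. The log2 ratio was -0.34 (-0.60 to -0.08) in Icam1-like cells, -0.82 (-1.60 to -0.06) in Ifit3-led cells, -0.68 (-1.47 to 0.07) in Dpp4-like cells and -0.19 (-0.52 to 0.14) in Il6-led cells. In F3-like cells it was 0.26 (-0.25 to 0.77), with 14.7 UPM in WT against 17.6 in transgenic. Outside Icam1-like cells, where 5 other settings gave -0.39 to -0.28, these values were not stable. Leaving out the 5 cells with the most Pparg UMIs gave -2.48 in Dpp4-like and -1.65 in Ifit3-led cells. Clustering anew with doublets kept gave -0.97 in Il6-led cells, and resolution 0.3 gave -0.27 in F3-like cells. The Tenm4-led Icam1-like cluster, too small to be compared, had Pparg at 31.2 UPM in WT (22 UMIs) and 95.3 in transgenic (15 UMIs), and made up 3.48% and 0.813% of progenitors. With the state sizes of the transgenic library, the WT levels would sum to 26.5 UPM against the 22.0 UPM measured, a log2 ratio of -0.27, and with the WT sizes the ratio was -0.13. Thinning each cell to 5000 UMIs gave 0.20, so the sign of the pooled Pparg ratio was not fixed by these data. The share of progenitors with a Pparg UMI was 24.1% in WT and 17.7% in transgenic at full depth, but 8.45% (6.88 to 10.3) and 8.10% (6.68 to 9.71) after thinning. None of the 25 WT cells led by acinar genes had a Pparg UMI, which allows a share of up to 12% (3 cells of 25; exact upper limit 13.7%) at their median of 10711 UMIs.

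**Figure D2:**
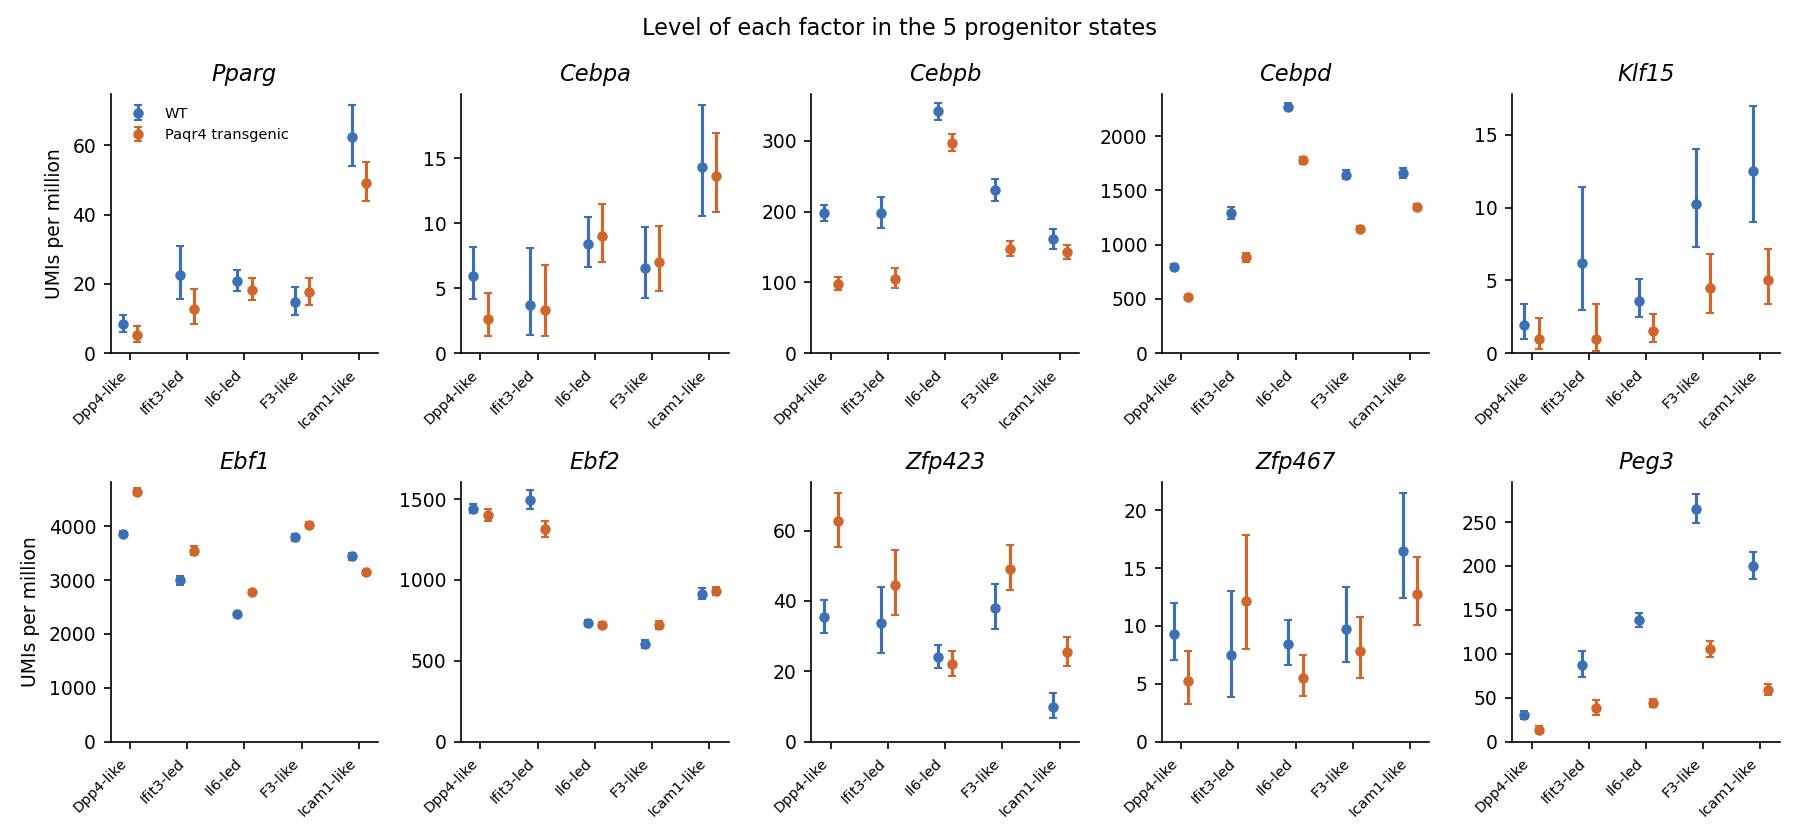
Level of each factor, in UPM on a linear axis from 0, in the 5 progenitor states of the WT library (blue) and the Paqr4 transgenic library (orange), with exact 95% Poisson intervals; each panel has its own axis. Pparg, Cebpa, Klf15 and Zfp467 are highest in Icam1-like cells, Cebpb and Cebpd in Il6-led cells and Peg3 in F3-like cells, in both libraries.

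Cebpa encodes C/EBPα, which keeps PPARγ expressed once the cascade has run, and is annotated at chr7:35119293-35121928 on the plus strand. It was at 8.17 UPM in WT (209 UMIs) and 7.88 UPM in transgenic (207 UMIs), a log2 ratio of -0.05 (-0.34 to 0.23). As with Pparg, the highest level was in Icam1-like cells, at 14.4 UPM in WT against 13.6 in transgenic. Dpp4-like cells were the only state whose interval for Cebpa left 0 out, at 5.92 UPM and 2.60 UPM (37 and 11 UMIs, log2 ratio -1.19, -2.31 to -0.19), both under the 10 UPM level used for counts. A single WT cell of that state held 13 of the 37 UMIs. Over 5 other settings the ratio ran from -1.59 to -0.56, with -0.56 at resolution 0.8 and -0.62 with doublets kept. Free RNA held Cebpa at 5.12 and 7.58 UPM, near the levels in progenitors, and its part in them was not tested. The shares of cells with both Pparg and Cebpa had intervals that overlapped: with each cell thinned to 10000 UMIs, 8.13% (4.40 to 13.5) of WT progenitors with a Pparg UMI and 6.19% (4.69 to 8) of those without had a Cebpa UMI, and 9.33% (5.2 to 15.2) and 5.86% (4.53 to 7.43) in transgenic.

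Klf15 encodes a Krüppel-like zinc finger factor that is induced by glucocorticoids and during adipogenesis, and is annotated at chr6:90462576-90475238 on the plus strand. It counted 172 UMIs in WT and 76 in transgenic progenitors, or 6.72 UPM (5.75 to 7.80) and 2.89 UPM (2.28 to 3.62), which was 2.32-fold lower in transgenic (log2 ratio -1.22, -1.62 to -0.82). The direction held in every state: 12.5 and 4.99 UPM in Icam1-like cells (-1.33, -2.06 to -0.61), 10.2 and 4.44 UPM in F3-like cells (-1.20, -2.04 to -0.40) and 3.60 and 1.51 UPM in Il6-led cells (-1.26, -2.39 to -0.24). Ifit3-led cells (10 and 2 UMIs) and Dpp4-like cells (12 and 4 UMIs) held few UMIs, and the interval in Dpp4-like cells, -3.11 to 0.70, included 0. Neighbouring states overlapped in WT throughout. A Klf15 UMI was found in 12.5% of WT and 5.32% of transgenic progenitors, and after thinning in 3.55% (2.53 to 4.82) and 1.83% (1.18 to 2.72). For comparison, 0 of 92 WT and 1 of 77 transgenic blood endothelial cells had a Klf15 UMI, at medians of 9699 and 7546 UMIs; the exact interval for 1 of 77 runs up to 7.02%. Among the 25 WT cells led by acinar genes, 16.0% had one. Free RNA held Klf15 at 6.32 UPM in WT (21 UMIs) and 2.53 UPM in transgenic (5 UMIs), and its part in the levels was not tested.

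Ebf1 encodes early B-cell factor 1, a helix-loop-helix protein that helps both B cells and fat cells to form; it spans chr11:44617317-45008091 on the plus strand, and 2.5% of that span is exon. It was found in 99.3% of WT and 99.4% of transgenic progenitors, at 3140.0 UPM (3118 to 3162) and 3363 UPM (3340 to 3385), a log2 ratio of 0.10 that lay near the 0.09 median of all genes. Of the states compared, Dpp4-like cells had the highest Ebf1 level in both libraries (3866 UPM in WT against 4640.1 in transgenic). Il6-led cells had the lowest of these states (2371 and 2773). Ebf1 was higher in transgenic in 4 states, with log2 ratios of 0.26 in Dpp4-like, 0.24 in Ifit3-led, 0.23 in Il6-led and 0.08 in F3-like cells. In Icam1-like cells it was lower, at 3444 UPM in WT against 3143 in transgenic (-0.13, -0.17 to -0.10).

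Ebf2 encodes a relative of EBF1 that marks precursors able to become brown or beige fat cells; it spans chr14:67233292-67430918 on the plus strand, 3.51% of it exon, and overlaps 4 counted genes of the opposite strand. Its level was 957 UPM in WT against 934 in transgenic, with 95.8% and 96.4% of progenitors positive, and the log2 ratio was -0.03 (-0.06 to -0.01). The Ebf2 level varied more between states than between libraries. It was at 1441 and 1399 UPM in Dpp4-like cells and 1495 and 1312 UPM in Ifit3-led cells, about level with each other in WT, and at 604 and 722 UPM in F3-like cells. F3-like cells showed the largest difference in favour of transgenic, 0.26 (0.18 to 0.33), and Ifit3-led cells the largest in favour of WT, -0.19 (-0.27 to -0.11). Among blood endothelial cells, at the shallower medians of 9699 and 7546 UMIs, 1.09% in WT and 2.60% in transgenic had an Ebf2 UMI.

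**Figure D3:**
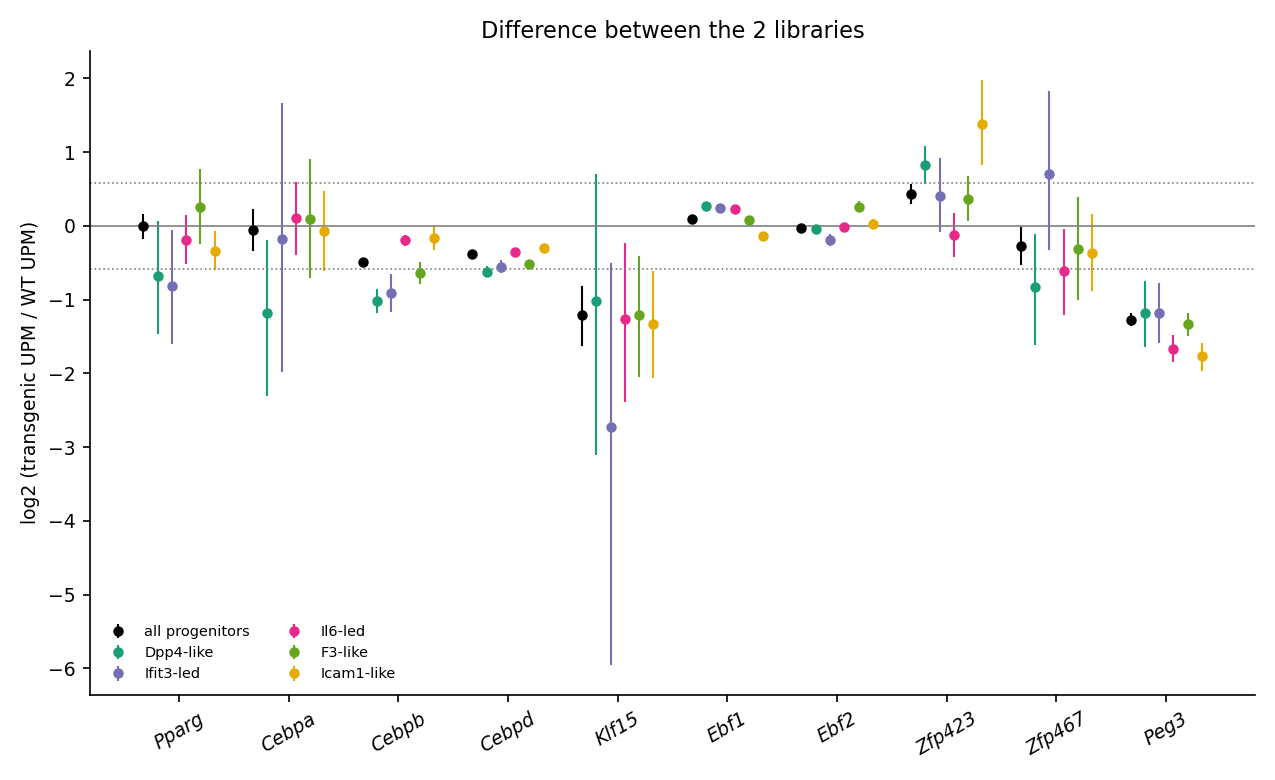
Log2 ratio of transgenic over WT UPM for each factor, in all progenitors (black) and in the 5 states (colours), with exact 95% conditional binomial intervals for counting error; dotted lines mark 1.5-fold either way. All 5 state points of Peg3, Klf15, Cebpb and Cebpd lie below 0, and Zfp423 lies furthest above 0 in Icam1-like cells.

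Zfp423 encodes a zinc finger protein that commits fibroblasts to the adipose lineage and holds white fat cells to their type; it spans chr8:87661810-87959595 on the minus strand, 1.88% of it exon. It was the member most in favour of the transgenic library, at 27.8 UPM in WT (25.8 to 29.9) and 37.5 UPM in transgenic (35.2 to 39.9), a log2 ratio of 0.43 (0.29 to 0.57). The difference was largest in Icam1-like cells, where Zfp423 was lowest in WT: 9.78 UPM (32 UMIs) against 25.4 UPM (153 UMIs), 2.60-fold higher in transgenic (1.38, 0.82 to 1.98). In Dpp4-like cells it was at 35.4 and 62.6 UPM (0.82, 0.56 to 1.09), and 34.2% of WT against 59.6% of transgenic cells had a UMI. In Il6-led cells, by contrast, it was at 24.0 and 22.0 UPM (-0.12, -0.43 to 0.18), and the ratio lay between 0.01 and 0.19 under 5 other settings. F3-like cells (38.1 and 49.1 UPM) and Ifit3-led cells (33.6 and 44.6 UPM) lay between these states in their ratios, at 0.37 and 0.41. Over all progenitors 27.1% of WT and 33.8% of transgenic cells had a Zfp423 UMI, and after thinning 10.3% (8.54 to 12.2) and 14.6% (12.7 to 16.6). Of the 25 WT cells led by acinar genes, 0 had one.

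Cells with a Pparg UMI had a Zfp423 UMI less often than cells without one in these samples of cells, with intervals that met or overlapped. With each cell thinned to 10000 UMIs, 11.2% (6.81 to 17.2) of WT progenitors with a Pparg UMI also had a Zfp423 UMI, against 19% (16.5 to 21.8) of those without. In transgenic these shares were 15.3% (9.98 to 22.1) and 23.8% (21.3 to 26.5). Within Icam1-like cells alone the shares were 7.84% and 7.37% in WT and 11.1% and 16.4% in transgenic, with intervals that overlapped widely.

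Zfp467 encodes a zinc finger protein that favours fat over bone formation, annotated at chr6:48427697-48445825 on the minus strand. It was at 10.3 UPM in WT (264 UMIs) and 8.53 UPM in transgenic (224 UMIs), a log2 ratio of -0.27 (-0.54 to -0.01). Its level was highest, of the states compared, in Icam1-like cells in both libraries, at 16.5 and 12.8 UPM. The intervals there overlapped those of F3-like cells in WT and of Ifit3-led cells in transgenic. The small Tenm4-led cluster held more, 25.6 UPM in WT (18 UMIs) and 38.1 in transgenic (6 UMIs). In Dpp4-like cells (9.28 and 5.2 UPM, -0.84, -1.62 to -0.11) and Il6-led cells (8.40 and 5.48 UPM, -0.62, -1.21 to -0.05) it was lower in transgenic beyond counting error. Ifit3-led cells went the other way, at 7.47 and 12.2 UPM on 12 and 26 UMIs (0.71, -0.33 to 1.83). Free RNA held Zfp467 at 9.03 and 9.10 UPM, about the level in progenitors, and its part in that level was not tested.

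Peg3 is annotated at chr7:6703892-6730431 on the minus strand, and 50.2% of its span is exon. It counted 3530 UMIs in WT and 1501 in transgenic progenitors, or 138 UPM (133 to 143) and 57.2 UPM (54.3 to 60.1), 2.41-fold lower in transgenic (log2 ratio -1.27, -1.36 to -1.18). Among the states compared, F3-like cells had the highest level in both libraries, 265 UPM in WT against 105 in transgenic. Dpp4-like cells had the lowest, 30.1 and 13.2 UPM. Each state was lower in transgenic: Icam1-like cells at 199.9 and 58.5 UPM (-1.77, -1.96 to -1.58), Il6-led cells at 138 and 43.7 UPM (-1.67, -1.85 to -1.49), F3-like cells with a ratio of -1.34 (-1.50 to -1.18), Dpp4-like cells with -1.19 (-1.64 to -0.75) and Ifit3-led cells with -1.18 (-1.59 to -0.78). With transgenic state sizes the WT levels would sum to 161 UPM, and the log2 ratio at either set of sizes was wider, -1.50 and -1.49. A Peg3 UMI was found in 57.8% of WT and 36.8% of transgenic progenitors, and after thinning in 35.1% (32.3 to 38.0) and 18.2% (16.1 to 20.4). Positive cells also held fewer, 5.44 UMIs on average in WT and 3.01 in transgenic at full depth. None of the 25 WT cells led by acinar genes had a Peg3 UMI. Free RNA held Peg3 at 87.0 UPM in WT against 40.9 in transgenic, and its part in the levels within cells was not tested.

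Peg3 sits in a cluster of imprinted zinc finger genes. Zim1, an imprinted gene 7.44 kb away on the same strand, was at 30.1 UPM in WT against 9.60 in transgenic progenitors, a log2 ratio of -1.65 (-1.86 to -1.44). Usp29, which starts 0.147 kb from Peg3 on the other strand and is likewise imprinted, had 36 and 19 UMIs (-0.96, -1.84 to -0.12). Of the 29 other counted genes within 500 kb, Zim1 was the only one at 10 UPM or more. Among the weaker ones further out, Zfp954 (9.18 and 7.73 UPM, -0.25), Zfp667 (4.18 and 4.99 UPM, 0.25) and Zfp583 (3.20 and 3.16 UPM, -0.02) had intervals that included 0, and Zfp28 (1.76 and 2.63 UPM) had a ratio of 0.58 (0.02 to 1.15). The 3 genes that were lower beyond counting error were thus next to each other.

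**Figure D4:**
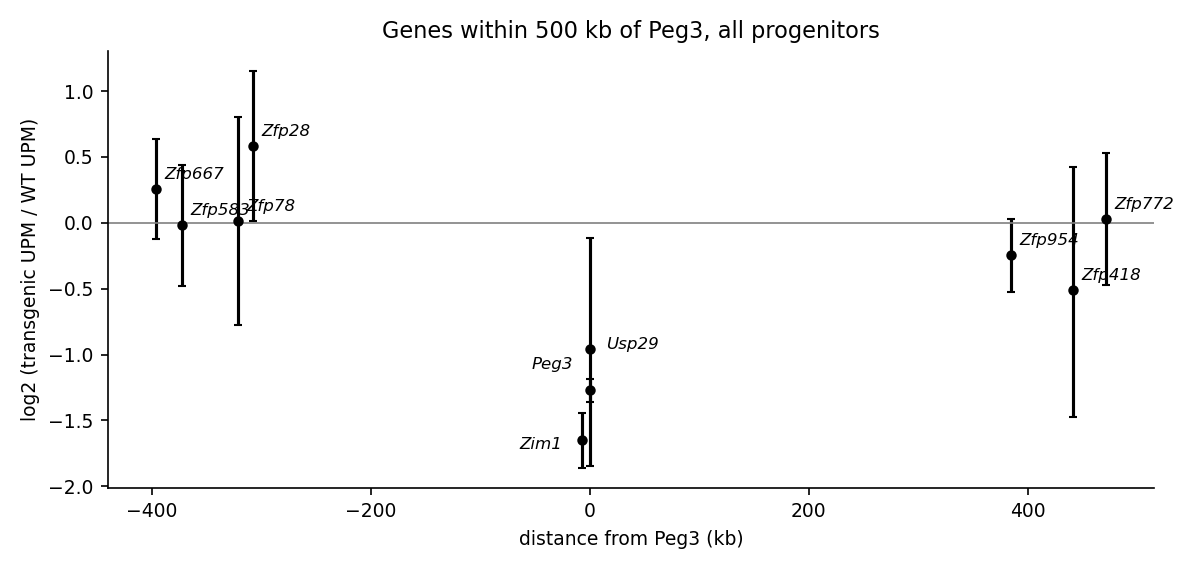
Log2 ratio of transgenic over WT in all progenitors for Peg3 and the 9 other genes within 500 kb of it that had at least 20 UMIs over both libraries, against distance from Peg3 in kb; bars are exact 95% intervals for counting error. Zim1 (-1.65), Peg3 (-1.27) and Usp29 (-0.96) lie together below 0 and the genes farther away lie around it.

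Counted at 1.5-fold and 10 UPM within states, the Il6-led cells had 1 of 7 members lower (Peg3; background 3.38% of genes lower) and 0 higher (background 4.11%). Icam1-like cells had Klf15 and Peg3 lower among 10 members (background 4.54%) and Zfp423 higher (background 5.16%). F3-like cells had Cebpb, Klf15 and Peg3 lower among 8 (background 4.5%) and 0 higher (background 5.99%). Dpp4-like cells had Cebpb, Cebpd and Peg3 lower among 6 (background 4.43%) and Zfp423 higher (background 7.25%). Ifit3-led cells had Pparg, Cebpb and Peg3 lower among 8 (background 7.19%) and Zfp467 higher (background 11.7%), on the fewest cells of the 5 states. Peg3 was the member past the fold in all 5.

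Progenitor clusters with under 50 cells in a library were not compared and are given as levels. A cluster led by Nkain3, Itgbl1 and Wnt4 (38 WT and 105 transgenic cells) had the lowest Pparg and Ebf1 levels of the 7 progenitor clusters in both libraries, Pparg at 6.31 UPM in WT (5 UMIs) and 1.18 in transgenic (2 UMIs), and Ebf1 at 1814 and 1309 UPM. Its Peg3 level was high in both libraries, 249 UPM in WT against 113 in transgenic. A further Icam1-like cluster, led by Tenm4 (39 WT and 11 transgenic cells) and shared with pericyte-like cells that were set apart, had Klf15 at 44.0 UPM in WT (31 UMIs, in 51.3% of cells), above every state compared, and at 19.1 UPM in transgenic (3 UMIs). That cluster held little Cebpb, 41.2 UPM in WT against 25.4 in transgenic (4 UMIs).

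Among other regulators of the pathway, a list of 27 that promote adipogenesis had 22 at 10 UPM or more in progenitors. Of these 13 lay above and 9 below equal levels, with a median log2 ratio of 0.05. The number past 1.5-fold was 0, beside a background of 2.72% of genes higher and 1.73% lower. Nfia, a factor that works with PPARγ in brown fat (1076 and 1546 UPM, 0.52), and Ebf3 (52.7 and 73.8 UPM, 0.48) were the furthest in favour of transgenic, and the CREB coactivator Crtc2 (-0.45) and the early zinc finger gene Egr2 (-0.43) in favour of WT. Of 32 regulators that restrain adipogenesis, 24 were measured, 15 above and 9 below, median 0.09, again with 0 past 1.5-fold; Klf3 (0.50) and the Notch target Hes1 (0.34) lay above, and Id3 (-0.41) and Twist1 (-0.40) below. Both medians lay near the 0.09 of all genes, and both counts of 0 stand beside that same low background.

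Known targets of PPARγ and C/EBPα were mostly low in these cells, and 13 of 34 reached 10 UPM. Of these 8 lay above and 5 below, with a median of 0.28 beside 0.09, and 1 was past 1.5-fold higher (background 2.72%), Fabp5, a fatty acid binding protein (6.60 and 10.2 UPM, 0.63). Hilpda (0.58) and Plin2 (0.51), both lipid droplet proteins, and Acaca (0.40), which makes malonyl-CoA for fatty acid synthesis, followed. Lpl, the lipoprotein lipase, named here after its values were seen, was the other way, at 1020 UPM in WT against 813 in transgenic (-0.33). The summed level of the list was lower, 1477 UPM in WT and 1351 in transgenic. The medians were nearer to those of all genes in Il6-led (0.06), Icam1-like (0.10), F3-like (-0.03) and Dpp4-like cells (0.14). In Ifit3-led cells the median was 0.30 beside 0.07 for all genes. There 5 of 12 targets were 1.5-fold or more higher (background 11.7%) and 1 was lower (background 7.19%).

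Glucocorticoid-induced genes were listed because Klf15 and Cebpd also answer that hormone. Of 15 listed, 14 were measured, and 12 were below and 2 above, with a median of -0.37 beside 0.09 for all genes; 4 were 1.5-fold or more lower (background 1.73%) and 1 higher (background 2.72%). Zbtb16, a zinc finger repressor, was at 932 and 288 UPM (-1.70), the clock gene Per1 at 42.8 and 19 UPM (-1.18), and the metallothionein Mt2 at 989 and 590.3 UPM (-0.74). Mt1, named after its value was seen, had -0.64. Hsd11b1, the enzyme that regenerates active glucocorticoid, was higher, at 68.0 and 122 UPM (0.84). The receptor gene Nr3c1, also on the list and named after its value was seen, was at 250.2 and 243 UPM (-0.04), with an interval that included 0, as did those of Cdkn1a and Pdk4. Within states the medians ran from -0.55 in F3-like to -0.19 in Icam1-like cells. Hormone levels are not measured here, and the relation of these genes to the members was not tested.

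Immediate early and dissociation genes share inducers with Cebpb. All 32 were measured, 14 above and 18 below, with a median of -0.04 beside 0.09, 3 past 1.5-fold higher (Dusp6 1.09, Nr4a3 0.75 and Nr4a2 0.66; background 2.72%) and 1 lower (Myc -0.59; background 1.73%). They differed by state: 10 lay above and 22 below in F3-like cells (median -0.21), 11 and 21 in Il6-led cells (-0.12). The numbers were 14 and 18 in Dpp4-like cells (-0.12), 15 and 16 in Ifit3-led cells (-0.00) and 20 and 10 in Icam1-like cells (0.13). The Cebpb ratio was -0.17 in Icam1-like, -0.20 in Il6-led and -0.91 in Ifit3-led cells, and its relation to this list was not tested. Of 26 imprinted genes, 17 were measured, 9 above and 8 below, with a median of 0.02; Zim1 was the only one past 1.5-fold (lower; background 1.73%), and Grb10 (-0.57), Mest (0.40) and Ndn (0.28) came next in size.

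The genes nearest each member in pattern were found by correlation of log2(UPM + 1) over 10 points, the 5 states in each of 2 libraries, among 4466 genes; points share their library, and the values are descriptions. Peg3 was nearest to Zim1 (r = 0.98), Itm2a (0.97) and Cxcl12 (0.96), all lowest in transgenic Dpp4-like cells and highest in WT F3-like cells. Pparg was nearest to Sult1a1, Dpep1 and Fap (0.97, 0.97 and 0.96), Cebpa to Xiap, Nupr1 and Alkal2, and Klf15 to Klf13, Pik3r1 and Smarca2. Cebpb was nearest to Zfp36, Sde2 and Id3 and Cebpd to Pcf11, Nop58 and Cyp7b1, with r between 0.95 and 0.99. Ebf1 was nearest to Tasor, Fat1 and Sfswap, Ebf2 to Galnt1, Megf9 and Cd47, and Zfp467 to Cdc26, Gpbp1l1 and Ncoa1. Zfp423 was nearest to Col8a1, Eea1 and St6gal1 (0.91, 0.90 and 0.89), and Col8a1 ran from 0.306 UPM in WT Icam1-like to 194 UPM in transgenic Dpp4-like cells.

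Among the members themselves, Klf15 with Peg3 (r = 0.88), Pparg with Cebpa (0.82), Cebpd with Peg3 (0.79) and Cebpb with Cebpd (0.79) had the highest correlations over these points. Zfp423 ran against Pparg and against Cebpa (-0.81 each), and Cebpd against Ebf1 (-0.80). Klf15, Peg3, Cebpb and Cebpd were each lower in transgenic in every state, so the points of pairs among these genes share that offset. Klf15 rested on 2 UMIs in transgenic Ifit3-led cells and 4 in transgenic Dpp4-like cells.

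Several members were not confined to progenitors. Blood endothelial cells (92 WT and 77 transgenic cells) had Pparg at 311 UPM in WT against 539 in transgenic, above the 22.1 and 22.0 UPM of progenitors, in 46.7% and 64.9% of cells. Here 5 cells of each library held 51.9% and 47.3% of the Pparg UMIs. They also had Zfp423 at 120 and 114 UPM and Ebf1 at 2308 and 2176 UPM, but Ebf2 at only 4.39 and 12.1 UPM (4 and 7 UMIs). Pericytes or smooth muscle cells (12 and 9 cells) had Ebf1 at 3109 and 4165 UPM and Ebf2 at 628 and 750 UPM, levels like those of progenitors. Mesothelial cells (13 and 11 cells) had Cebpb at 276 and 120 UPM and 0 Pparg UMIs in either library, and in transgenic their Ebf1 and Ebf2 UMIs came from 1 cell each. The cells led by the adipocyte genes Car3, Cfd and Adipoq numbered 2 in WT and 8 in transgenic, with medians of 1769 and 1437 UMIs. They held 2 and 4 Pparg UMIs, 0 and 5 Cebpa UMIs and 2 and 12 Cebpb UMIs, and 0 of Klf15, Ebf2, Zfp423 and Zfp467. Cebpa in the transgenic cells of that kind was at 384 UPM (5 UMIs), against 7.88 UPM in progenitors.

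**Figure D5:**
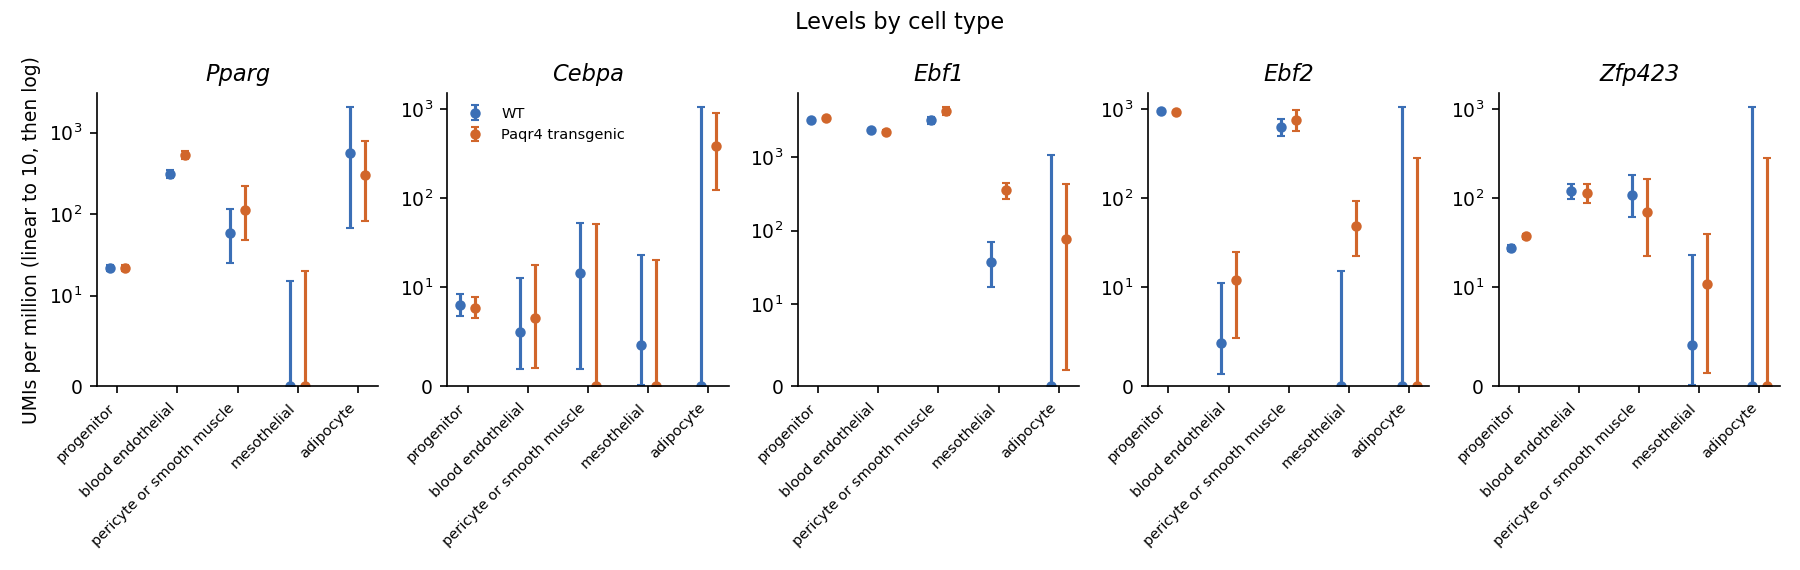
Level of Pparg, Cebpa, Ebf1, Ebf2 and Zfp423 by cell type, in UPM on an axis that is linear to 10 and logarithmic above, for WT (blue) and Paqr4 transgenic (orange), with exact 95% Poisson intervals. Pparg is higher in blood endothelial cells (311 and 539) than in progenitors (22.1 and 22.0), while Ebf2, of the 5 cell types drawn, is highest in progenitors and pericytes or smooth muscle; adipocyte points rest on 2 and 8 cells.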

How the data were processed

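Droplet libraries were made with the 10x Genomics 3' chemistry, per the series text. The authors deposited raw counts, whole UMIs of each gene in all barcodes, per the file headers and the values. Cell Ranger 7.0.0 and mm10 stand in the submitters' processing notes, whereas the matrix header has Cell Ranger 4; whether intronic reads or strand were used in counting was not given in the sources used here. Total UMIs were 44145257 in WT and 43084906 in transgenic, of which 25593257 and 26257895 lay in progenitors, where the floor of 3 UMIs equals 0.117 and 0.114 UPM.

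Cells passed at 1000 UMIs, 500 genes and 10% mitochondrial UMIs. Scrublet removed 1 WT and 4 transgenic doublets, so few that undetected doublets may remain. Clustering used scanpy 1.11.5 with 2000 variable genes, 30 components, 15 neighbours and Leiden resolution 0.5 (leidenalg 0.10.2, seed 1), without correction between libraries. Of 15 clusters, 7 were progenitor clusters, and a progenitor was a cell of these whose largest summed share of UMIs fell to the progenitor list. That share was compared over the 17 marker lists except those of Dpp4-like, Icam1-like and F3-like progenitors. A state took a name when at least 3 and over 50% of its markers lay 1.5-fold above the other progenitors at 20 UPM or more. These thresholds were chosen after the clusters were seen, as were the motifs. The members and gene lists were chosen with earlier results of these data known.

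Intervals were Poisson for levels, Clopper-Pearson for shares and conditional binomial for ratios (scipy 1.17.1), and PCR duplicates are removed only as far as UMIs do so. No test was run. The ratio code was tested on simulated data. Named genes were the members, the 3 nearest genes of each at 50 UPM or more in a point, and up to 4 genes with the largest ratio in each of 6 lists at 10 UPM or more. Alternatives covered doublets, UMI and mitochondrial thresholds, depth, scaling, weights, single cells, resolution and clustering genes. Positions are from GENCODE M21 (GRCm38). The identifiers, in the order of the opening sentence, are ENSMUSG00000000440, ENSMUSG00000034957, ENSMUSG00000056501, ENSMUSG00000071637, ENSMUSG00000030087, ENSMUSG00000057098, ENSMUSG00000022053, ENSMUSG00000045333, ENSMUSG00000068551 and ENSMUSG00000002265. Where a gene overlaps another on the opposite strand (Pparg, Cebpa, Cebpb, Cebpd, Ebf1 and Ebf2), reads of the pair may not be separable.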

Additional observations from a re-analysis of the deposited data

Results flagged for a closer look

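For 2 members the sign of the difference between the libraries changed between progenitor states, with intervals for counting error that left 0 out on both sides; whether the states differ was not tested, since each state has 1 library per genotype. Ebf1 had log2 ratios of 0.23 in Il6-led, 0.08 in F3-like, 0.26 in Dpp4-like and 0.24 in Ifit3-led cells, and of -0.13 in Icam1-like cells. Ebf2 had a log2 ratio of 0.26 in F3-like cells and of -0.19 in Ifit3-led cells. The values in F3-like cells changed sign with the clustering resolution (see the next part), whereas Ebf1 in Icam1-like cells stayed between -0.22 and -0.09.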

How the results depend on the processing

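Over 14 alternative settings, the log2 ratio in all progenitors ranged from -1.48 to -1.20 for Peg3, -1.43 to -0.93 for Klf15, -0.57 to -0.47 for Cebpb, -0.47 to -0.38 for Cebpd, 0.35 to 0.55 for Zfp423, 0.02 to 0.14 for Ebf1 and -0.67 to -0.24 for Zfp467. Pparg (-0.32 to 0.20) and Cebpa (-0.13 to 0.06) crossed 0, as their intervals do. Keeping doublets, resolutions 0.3 and 0.8, and members among the clustering genes each returned the main value of every member. Those settings thus did not probe the ratios in all progenitors. With cells thinned to 5000 UMIs, Ebf2 in all progenitors turned to 0.028. In these thinned cells 2 measured members instead of 1 were 1.5-fold or more lower, Zfp467 (-0.67) beside Peg3. Zfp467 then rested on 71 UMIs in WT and 53 in transgenic. The share of all genes past the fold is not given for thinned cells, so that count has no background beside it. Cebpb in Icam1-like cells was 0.031 with doublets kept. Ebf1 in F3-like cells was -0.050 at resolution 0.8 and Ebf2 in F3-like cells -0.051 at resolution 0.3. Each of these settings formed the clusters anew, so the cells of the state changed too, and the cause was not tested. Without the 5 cells with the most UMIs of the gene, with doublets kept or under other clusterings, Zfp423 in Icam1-like cells ranged from 0.66 to 1.81, Peg3 in Dpp4-like cells from -1.40 to -0.50 and Klf15 in Icam1-like cells from -1.50 to -1.30. Ifit3-led cells had no match at resolution 0.3, with the members among the clustering genes or with doublets kept, so they have no value there. Depth limits Klf15, Cebpa and Zfp467 most, which rest on under 300 UMIs a library. No paired analysis was possible because each genotype has 1 library.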

Other observations

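Core clock and clock output genes are a further group that holds Per1; the list of 16 was written after values had been seen. In all progenitors 10 were at 10 UPM or more, 8 above and 2 below equal levels, with a median log2 ratio of 0.20 beside 0.09 for all genes. Per1 (42.8 and 19 UPM, -1.18) and Nr1d2 (19.4 and 12.8 UPM, -0.59) were lower in transgenic. Arntl, which encodes BMAL1 (114 and 142 UPM, 0.32), Cry1 (36.2 and 50.2 UPM, 0.47) and Bhlhe40 (80.6 and 100.2 UPM, 0.31) were higher. Per1 was lower in each of the 5 states, from -0.96 in F3-like to -1.55 in Ifit3-led cells. The labels give no time of day at which tissue was taken.

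A cluster of 56 cells, 28 from each library, carried haemoglobin genes at the top together with progenitor genes and was left out of the progenitors. In it, Peg3 was at 173 UPM in WT (106 UMIs) against 13.7 in transgenic (9 UMIs), Cebpd at 1156 and 979.9 UPM, and Zfp423 at 6.51 UPM (4 UMIs) and 35.1 UPM (23 UMIs). Of the WT Peg3 UMIs, 5 cells held 77.4%.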
